A study of Mus musculus with 14 samples.

Results

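Metallothioneins 1 and 2, encoded by Mt1 and Mt2, are the 2 genes described here, out of 19322 genes listed for single cells of embryonic day (E) 10, 19424 for single cells of E11 and 19425 for whole clusters. Both were selected on measured values: Mt1 stood higher in yolk sac cells than in cells of the aortic clusters at both stages, and Mt2 is its neighbour on chromosome 8. The levels in sorted single cells are therefore a description and carry no test. The whole-cluster libraries were not used in the choice, and tests were run there.

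Metallothioneins are small cysteine-rich proteins that bind zinc and copper and, when exposed to them, cadmium and other heavy metals. Their genes are induced by metals through the transcription factor MTF1, and also by glucocorticoids and oxidative stress. Red-cell precursors, the liver and the visceral yolk sac of the mouse embryo are known to express them.

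The study followed the first blood stem cells of the mouse aorta, which arise from haemogenic endothelium (HE) through an endothelial-to-haematopoietic transition (EHT) and gather in intra-aortic haematopoietic clusters (IAHC). Transcripts were counted with CEL-Seq, which tags single molecules at the 3′ end of the transcript, in sorted single cells and in whole clusters picked from the aorta (wIAHC). The series holds 14 samples, 12 of single cells and 2 of whole clusters, with 1 sample for each population and stage except that IAHC cells of E11 came from 2 different sorts. All aortic cells came from the aorta-gonad-mesonephros region.

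Non-HE, HE and EHT cells were all sorted as Cdh5+ and Gfi1b-; HE and EHT cells were Gfi1+, non-HE cells Gfi1-, and only EHT cells c-kit+. They were from ICR embryos with the genotype Gfi+/tomato/ Gfi1b+/GFP, so each carries reporter alleles in place of a copy of Gfi1 and Gfi1b. The IAHC cells (c-kit+ CD31+ at E10, c-kit+ CD31+ or c-kit+ at E11), the yolk sac cells (YS, c-kit+), the pre-haematopoietic stem cells (pre-HSC, c-kit+ Cdh5+ with CD45 recorded, E11) and the wIAHCs (c-kit+) were from wild-type C57BL/6 embryos. Embryos of E10 had 28 to 32 somite pairs and those of E11 more than 40. Embryos were pooled, and single embryos cannot be recognised in the tables. The columns of the E10 non-HE cells are named as early E11, while their label and table give E10, which was followed. The types of the pre-HSCs and the sides of the aorta come from column names only. Strain, genotype and sort differ together between the ICR and C57BL/6 populations and cannot be told apart; the yolk sac and IAHC cells share strain and genotype.

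The table of E10 holds 546 cells of 5 populations, each brought by the authors to 3000 transcripts, and that of E11 holds 575 cells of 7 populations at 5000. The median cell had transcripts of 1811 genes at E10 and 2308 at E11, and 0 pairs of cells in either table were identical. The sorts could be read in their marker genes: Cdh5, the endothelial cadherin, averaged 7.30 transcripts per cell in E10 non-HE cells and 0.0284 in E10 YS cells, and Gata1, an erythroid transcription factor, averaged 0.518 in E10 YS cells and 0.0274 in E10 IAHC cells. The authors also selected IAHC cells by Gpr56 and other transcripts. All deposited IAHC cells, 73 of E10 and 290 of E11, had a Gpr56 transcript, and all are used here. Those with more than 1 Gpr56 transcript and at most 2 of any non-IAHC gene averaged 0.0926 Mt1 transcripts at E10 and 0.283 at E11.

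In the mouse annotation (GENCODE, build GRCm38) Mt2 lies at chr8:94172664-94173568 and Mt1 at chr8:94179082-94180327, both on the plus strand with 3 exons, with 5513 bases between them. The annotated transcripts of the pair share 0 words of 31 bases, so a read of that length from 1 gene does not match the other. Mt3 and Mt4, the other metallothionein genes, lie before them on the same strand. Mt3 had 0 transcripts in the E10 cells and 1 in the E11 cells, and Mt4 had 0 in both.

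Because Mt1 and Mt2 had like patterns across populations, their promoters were read for the core of the metal response element, the DNA motif that MTF1 binds. Both RefSeq promoter windows (GRCm38, plus strand, 250 bases before the start and 50 after it, chr8:94172368-94172667 for Mt2 and chr8:94178839-94179138 for Mt1) are given below, with each match to TGCACNC or TGCGCNC on either strand in capitals.
Mt2: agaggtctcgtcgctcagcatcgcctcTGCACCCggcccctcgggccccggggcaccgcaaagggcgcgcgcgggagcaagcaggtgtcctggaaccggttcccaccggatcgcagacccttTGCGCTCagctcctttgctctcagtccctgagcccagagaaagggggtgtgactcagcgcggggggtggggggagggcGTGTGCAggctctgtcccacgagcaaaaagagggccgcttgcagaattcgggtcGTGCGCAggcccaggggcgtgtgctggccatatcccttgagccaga
Mt1: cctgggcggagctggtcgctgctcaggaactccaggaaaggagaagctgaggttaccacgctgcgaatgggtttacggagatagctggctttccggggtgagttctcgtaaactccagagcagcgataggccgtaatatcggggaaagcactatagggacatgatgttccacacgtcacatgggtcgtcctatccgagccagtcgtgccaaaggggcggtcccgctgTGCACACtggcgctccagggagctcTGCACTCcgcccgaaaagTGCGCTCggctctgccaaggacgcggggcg
The Mt2 window holds 4 matches, 2 on each strand, and the Mt1 window 3, all on the plus strand. A match was present in 25.7% of 32817 promoter windows of the same length, 3 or more in 1.97% and 4 or more in 0.518%. The windows do not show which factor binds there.

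At E10, Mt1 was plentiful in the yolk sac and rare in each aortic population. YS cells held 241 Mt1 transcripts in 141 cells, a mean of 1.71 per cell (exact Poisson 95% interval 1.5 to 1.94), with 92 cells positive. The 2 sets of yolk sac cells, which are groups of columns with a shared name, gave 1.72 and 1.7. The sets did not differ beyond counting error.

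IAHC cells of E10 averaged 0.0685 Mt1 transcripts per cell (0.0222 to 0.160, 5 transcripts in 73 cells), and EHT cells 0.0314 (0.0115 to 0.0684, 6 in 191). Non-HE cells held 1 transcript in 43 cells and HE cells 1 in 98. The order was therefore YS, IAHC, EHT, non-HE and HE, and the counting intervals of the last 4 overlapped. The YS mean was 25.0 times that of IAHC, the contrast for which Mt1 was chosen, and YS cells held 94.9% of all Mt1 transcripts of the E10 table.

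Mt2 was lower and again highest in the yolk sac. E10 YS cells averaged 0.418 Mt2 transcripts (0.319 to 0.540, 59 transcripts), with 0.462 and 0.382 in the 2 sets, and held 95.2% of the Mt2 transcripts of that table. IAHC cells held 2 transcripts, HE cells 1, and EHT and non-HE cells 0. Taken as fewer than 3 counts, a count of 0 allows a share of cells with an Mt2 transcript of up to 1.571% in the 191 EHT cells and 6.98% in the 43 non-HE cells. At this depth that is no limit on the cells that express the gene.

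At E11 the yolk sac again had the highest Mt1 level, and IAHC cells came next. YS cells averaged 1.13 Mt1 transcripts (0.844 to 1.482, 52 in 46 cells, 24 positive) and IAHC cells 0.328 (0.265 to 0.400, 95 in 290 cells, 38 positive). The YS mean was 3.45 times that of IAHC, and YS cells held 32.5% of all Mt1 transcripts of the E11 table. EHT cells averaged 0.130 (0.0479 to 0.284), with an interval that overlapped that of IAHC, but 3 cells with macrophage markers held 5 of the 6 transcripts, and the mean was 0.0233 without them. The place of EHT cells in the order thus rests on those 3 cells. When all 46 EHT cells were thinned to 3000 transcripts, in a single random draw, 1 Mt1 transcript was left, a mean of 0.0217. Of the others, type I pre-HSCs held 5 transcripts in 62 cells, non-HE cells 1 in 30, type II pre-HSCs 1 in 55 and HE cells 0 in 46, which allows up to 6.52% of cells with a transcript. The intervals of these 4 populations overlapped.

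Among IAHC cells of E11, the lowest of 9 sets averaged 0.0800 Mt1 transcripts per cell and the highest 0.465. The sorts gave like Mt1 means, 0.338 for c-kit+ CD31+ (0.263 to 0.429, 201 cells) and 0.303 for c-kit+ (0.200 to 0.441, 89 cells). Mt2 was 0.0995 (0.0608 to 0.154) and 0.270 (0.173 to 0.401) in the same order, with counting intervals that did not overlap, and 13 of the 24 Mt2 transcripts of the c-kit+ sort lay in 1 cell.

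Mt2 at E11 was again highest in YS cells, at 0.652 per cell (0.440 to 0.931), and these held 32.6% of the Mt2 transcripts of that table. EHT cells averaged 0.217 (0.104 to 0.400), IAHC cells of both sorts together 0.152 (0.110 to 0.204), type II pre-HSCs 0.0909 and type I pre-HSCs 0.0484, with overlapping intervals between neighbours among these 4. HE and non-HE cells held 0 Mt2 transcripts, which allows up to 6.52% and 10% of cells with a transcript. Single cells weighed on these means: 1 YS cell and 1 IAHC cell held 13 Mt2 transcripts each and 1 EHT cell 7 of 10, and without them the means were 0.378, 0.107 and 0.0667, which puts EHT below IAHC.

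**Figure D1:**
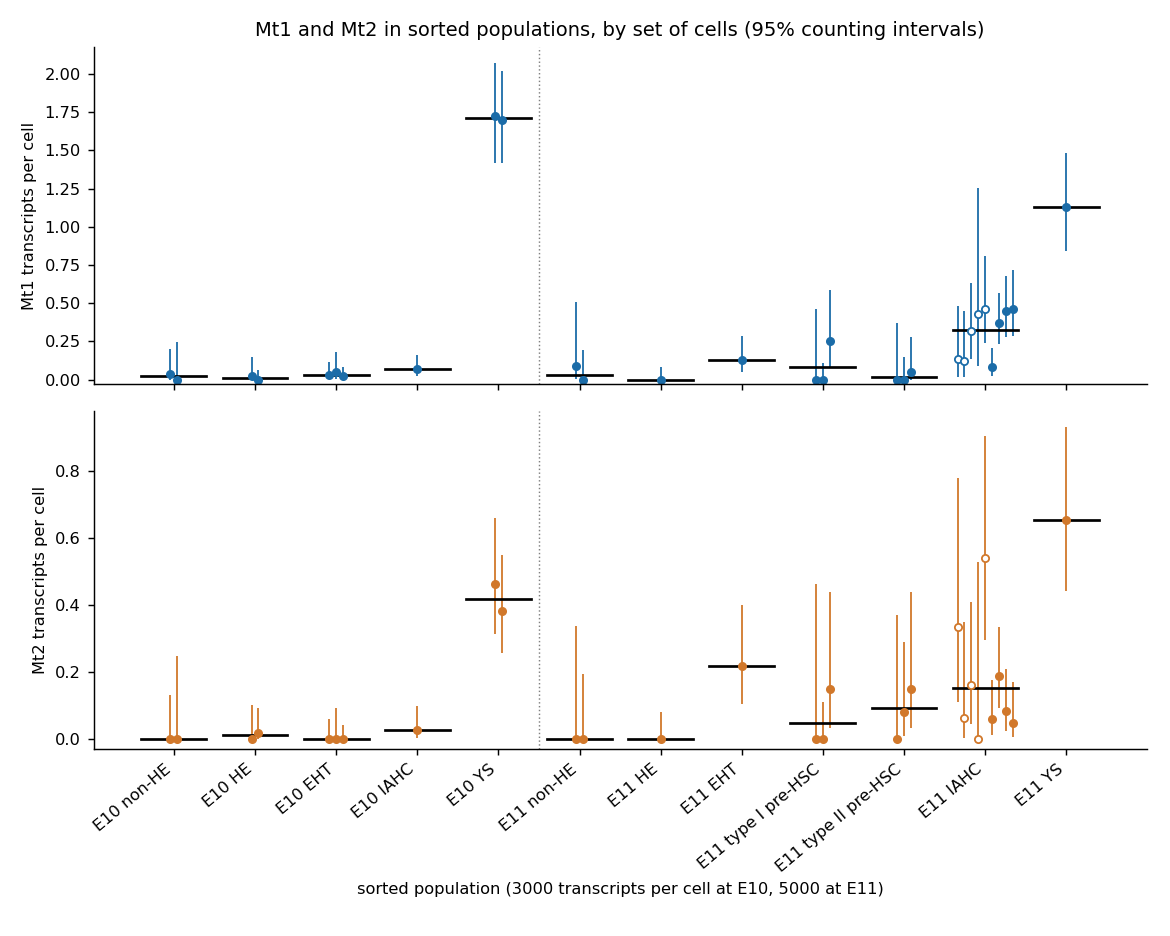
Mean transcripts per cell of Mt1 (upper panel) and Mt2 (lower panel) in each set of cells, with exact Poisson 95% intervals; black lines are the means over all cells of a population and open circles the c-kit+ sort of E11 IAHC. The Mt1 means of E10 YS (1.71) and E11 YS (1.13) stand above those of the aortic populations of the same stage, of which E11 IAHC is highest (0.328).

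Depth differs between the stages, so E11 cells were also thinned to 3000 transcripts. At that depth YS cells of E11 averaged 0.630 Mt1 transcripts (0.422 to 0.905), below the 1.71 of E10, and 0.348 Mt2 transcripts (0.199 to 0.565), within counting error of the 0.418 of E10. IAHC cells of E11 averaged 0.190 Mt1 transcripts (0.143 to 0.247), above the 0.0685 of E10, with intervals that overlapped slightly. With 1 sample per population and stage, no difference between stages can be set against the spread between embryos. The intervals here cover counting error only, and they are too narrow where a few cells hold many transcripts.

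Mt1 was spread less evenly over E11 IAHC cells than over YS cells. In E10 YS cells the tenth of cells with the most Mt1 held 32.8% of the transcripts, in E11 YS cells 44.2% and in E11 IAHC cells 90.5%, a share that a low level raises by itself. The variance of Mt1 over its mean was 1.98 and 1.99 in YS cells and 5.32 in E11 IAHC cells, where a Poisson count would give 1, and in E10 IAHC cells, with 5 transcripts, it lay below the YS values. Among IAHC cells of E11, 252 had 0 Mt1 transcripts and the highest cell had 13.

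In E11 IAHC cells Mt1 and Mt2 tended to be found together, and YS cells had the same direction with overlapping intervals. Mt2 was detected in 25 of 92 Mt1-positive E10 YS cells (27.2%, Clopper-Pearson 95% interval 18.4 to 37.4) and in 5 of 49 Mt1-negative cells (10.2%, 3.40 to 22.2). In E11 IAHC cells it was detected in 10 of 38 Mt1-positive cells (26.3%, 13.4 to 43.1) and in 10 of 252 Mt1-negative cells (3.97%, 1.92 to 7.18). E11 YS cells gave 33.3% of 24 and 9.09% of 22. In E10 IAHC cells and both types of pre-HSC, 0 cells held both genes.

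Mt1 made up most of the pair in these cells. As each molecule is counted from its 3′ end, counts of the genes do not scale with transcript length. Mt1 was 80.3% of the summed Mt1 and Mt2 transcripts in E10 YS cells (75.4 to 84.7), 63.4% in E11 YS cells (52 to 73.8) and 68.3% in E11 IAHC cells (59.9 to 76.0). In E11 EHT cells it was 37.5% of 16 transcripts (15.2 to 64.6).

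In YS cells and in E11 IAHC cells, Mt1 and Mt2 were higher in cells that carried several erythroid regulators. Cells were split by how many of Klf1, Gata1 and Cited4 had a transcript; Klf1 and Gata1 are transcription factors of red-cell precursors, and Cited4 encodes a transcriptional co-regulator. The 3 were picked with results of these data known: all are among the 4 genes with the highest ratio between Mt1-positive and Mt1-negative E10 YS cells, so in those cells the split restates that ratio. In E11 cells the split and the ratios given below come from the same cells and show the same association. In E10 YS cells the Mt1 mean was 0.712 with 0 of the 3 genes (59 cells), 1.64 with 1, 3.18 with 2 and 2.47 with all 3, and Mt2 went from 0.0678 with 0 to 0.800 with 3. In E11 YS cells Mt1 was 0.727, 0.5, 2.20 and 3.60.

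The split was steeper in E11 IAHC cells. The 261 cells with 0 of these transcripts averaged 0.119 Mt1 transcripts (0.0807 to 0.169), the 18 cells with 1 averaged 1.00 (0.593 to 1.58), the 6 with 2 averaged 3.17 (1.907 to 4.945) and the 5 with 3 averaged 5.40 (3.56 to 7.86). Single cells carried much of the steep end: 1 of the 6 held 11 of 19 transcripts and 1 of the 5 held 13 of 27. Klf1 was detected in 8 IAHC cells of E11, which averaged 5.13 Mt1 transcripts against 0.191 in the 282 others. Even so, 31 of the 95 Mt1 transcripts lay in the 261 cells with 0 of these erythroid transcripts. In E10 IAHC cells Klf1 was not detected in any of 73 cells, and the 5 Mt1 and 2 Mt2 transcripts lay in the 70 cells with 0 of the 3 genes.

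**Figure D2:**
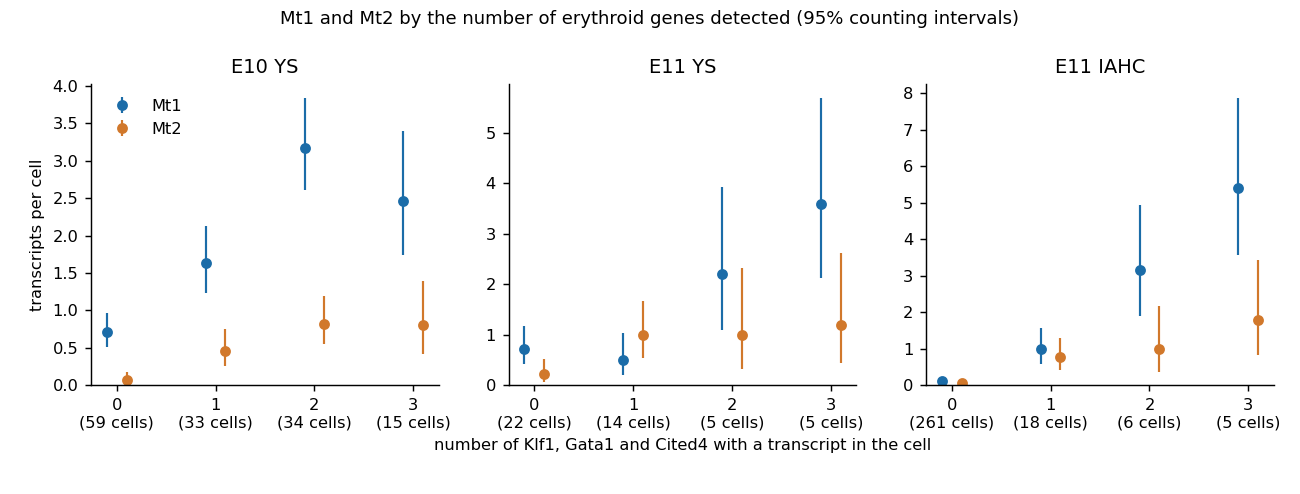
Mean Mt1 and Mt2 transcripts per cell (vertical axis) by the number of Klf1, Gata1 and Cited4 detected in the cell (horizontal axis, number of cells in brackets) in E10 YS, E11 YS and E11 IAHC cells, with exact Poisson 95% intervals. In E11 IAHC cells the Mt1 mean goes from 0.119 with 0 genes to 5.40 with 3.

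Across the 12 populations, with E11 thinned to 3000 transcripts, Mt1 and Mt2 had a Pearson r of 0.92 on log2 means. Of 2389 genes compared, those most like Mt1 were Gata1 (r = 0.97), Cited4 (0.96), Asns (0.94), Ncln, Slc22a3, Ydjc, Zfpm1, Plek, Tpi1 and Rap1b, the last at 0.89. The 8 most like Mt2 were Asns (0.95), Gata1 (0.93), Ydjc (0.90), Cited4, Fermt3, Tuba4a, Plek and Psmb10, of which 5 are also among the 10 most like Mt1. The populations of a stage share a table and a depth, and YS cells are the high point of each of these genes, so r describes that contrast. At a lower minimum mean, given below, most of the 10 genes most like each member were others.

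Among the genes higher in Mt1-positive than in Mt1-negative cells of the E10 yolk sac, erythroid genes led. Of 1525 genes compared, the 10 with the highest ratio of means in positive cells were Cited4, Hbb-bh1 (an embryonic globin), Klf1, Gata1, Emilin2, Lgals1 (galectin 1), Smim1 (the Vel blood group antigen), Kcnn4, Slc16a3 and Alad (an enzyme of haem synthesis), with log2 ratios from 2.771 for Cited4 to 1.314 for Alad. Cited4 averaged 1.837 transcripts in the 92 positive cells and 0.184 in the 49 negative cells. A gene was compared if its mean reached 0.5 in either class. Cited4, Hbb-bh1, Klf1, Gata1, Smim1 and Alad reached it in the positive cells only, so this order is a description. The 5 lowest were the imprinted growth genes Igf2 and H19, with log2 ratios of -1.99 and -1.94, the progenitor antigen Cd34 with -1.915, and Ltbr and Rcbtb2 with -1.80 and -1.76.

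These genes were then read in samples not used to pick them. All 10 had ratios above 1 in E11 YS cells and in E11 IAHC cells, and at least 2-fold in 6 and 8 of them; the median log2 ratios were 1.34 and 1.504. Among genes with a mean of at least 0.2 in either class of cells (3701 in E10 YS, 4842 in E11 YS and 4951 in E11 IAHC), 1.594%, 6.402% and 1.616% were higher by at least 2-fold in Mt1-positive cells. The 5 lowest had ratios under 1 in both, at least 2-fold in 1 and 2 of them, where 2.378%, 8.839% and 2.989% of those genes in the 3 populations were lower by 2-fold. The 10 and the 5 were picked at a higher minimum mean, 0.5, so the shares describe a wider set of genes. The share of all genes above or under a ratio of 1 is not given, so the directions are a description. All ratios are between cells of single samples. The Mt1-positive cells had slightly fewer genes than the negative ones, with medians of 1747.5 and 1771, 2120 and 2237, and 2247 and 2333 in the same order.

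**Figure D3:**
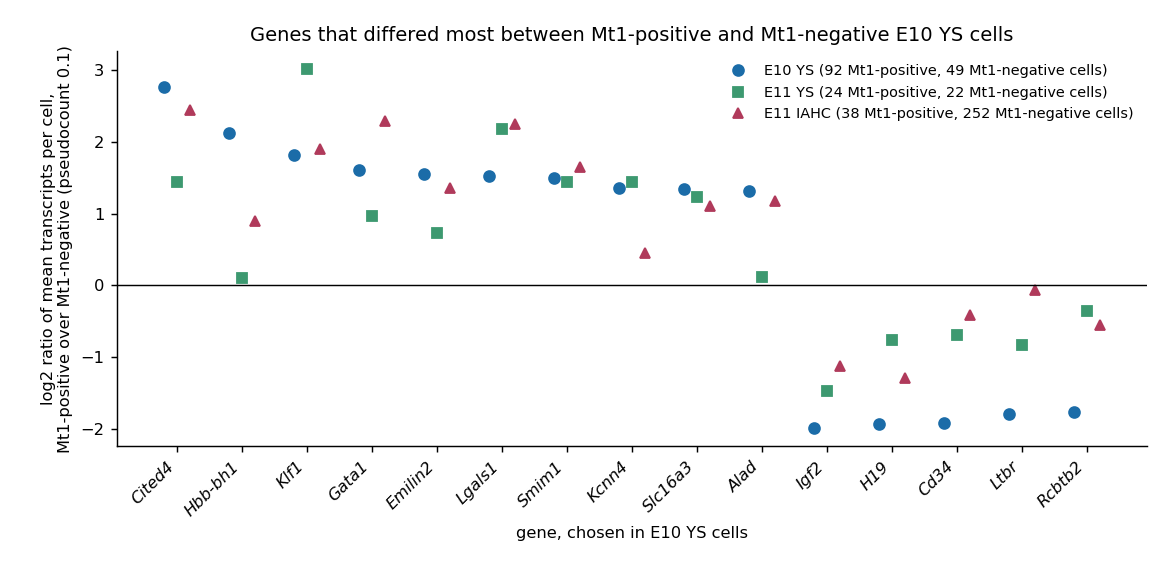
Log2 ratio of mean transcripts per cell in Mt1-positive over Mt1-negative cells (vertical axis, pseudocount 0.1) for the 10 highest and 5 lowest genes of E10 YS cells (horizontal axis), in E10 YS, E11 YS and E11 IAHC cells. Each point keeps its side of 0 in all 3 populations, and Ltbr in E11 IAHC (-0.06) is nearest to it.

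Lists of genes with known roles were compared among the same genes, with a mean of at least 0.2. Of the erythroid list, 8 of 13 compared genes were at least 2-fold higher in Mt1-positive E10 YS cells, 6 of 14 in E11 YS cells and 7 of 12 in E11 IAHC cells, against 1.594%, 6.402% and 1.616% of all genes. The lists were chosen with results of these data known, and a rare gene can enter through the class in which it is high. All 7 of E11 IAHC reached the minimum in Mt1-positive cells only. So did those of E10 YS except Zfpm1 and those of E11 YS except Cited4 and Zfpm1. These counts are a description. Of the metal homeostasis list, which holds MTF1, zinc and copper transporters and copper chaperones, 0 of 6, 0 of 8 and 0 of 8 were higher by 2-fold, and 0 were lower. Lists this short would hold about as many at the shares of all genes, so nothing is read from these counts of 0.

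Lists tied to other inducers of metallothioneins do not measure the inducers, and their counts are too small to be set against the shares of all genes. Of the oxidative stress list 0 of 15, 0 of 18 and 0 of 17 genes were 2-fold higher in Mt1-positive cells. Of glucocorticoid targets 0 of 1, 1 of 2 (Errfi1) and 0 of 4 were, and 0, 1 (Fkbp5) and 0 were lower. Summed over the oxidative stress list, Mt1-positive cells held more transcripts than Mt1-negative ones, 27.9 against 25.0 per cell in E10 YS, 41.8 against 36.5 in E11 YS and 38.8 against 34.9 in E11 IAHC, with counting intervals that did not overlap. Much of the gap came from Gpx1, at 10.3 against 8.59 in E10 YS and 14.2 against 11.2 in E11 YS, while Txn1 was lower in positive cells of all 3 populations. The metal homeostasis list summed to 4.38 and 3.84 in E10 YS, 4.54 and 4.68 in E11 YS and 5.05 and 4.607 in E11 IAHC, with overlapping intervals.

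Globin genes differed among themselves. In E10 YS cells Hbb-bh1 was higher in Mt1-positive cells (1.05 against 0.163 per cell) and Hbb-y was not (0.272 against 0.306). Haemoglobin genes averaged 0.0496% of transcripts in Mt1-positive and 0.0224% in Mt1-negative E10 YS cells, 0.0808% and 0.109% in E11 YS cells, and 0.00421% and 0.00579% in E11 IAHC cells. No cell of either table reached 5% haemoglobin, and the highest stood at 0.6% in E10 YS. Of 13 endothelial genes compared, 8 were at least 2-fold lower in Mt1-positive E11 IAHC cells, against 2.989% of all genes. Among them were Cdh5, Eng and Tie1. In E11 YS cells 4 of 8 were lower (Cdh5, Cldn5, Eng and Esam), against 8.839%. These 4 reached the minimum mean in Mt1-negative cells only, as did Gja4 and Plvap of E11 IAHC cells. The counts are therefore a description.

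Markers of other cell types stood beside Mt1 in places. In Mt1-positive E11 IAHC cells, 4 of 8 megakaryocyte genes (Gp1bb, Itga2b, Pf4 and Plek), 3 of 9 myeloid genes (Fcgr3, Mpo and Plac8) and 2 of 3 macrophage genes (Fcer1g and Tyrobp) were at least 2-fold higher, against 1.616% of all genes, with most of them above the minimum in the positive cells only. Others went the other way, with log2 ratios of -1.09 for the megakaryocyte gene Vwf and -0.72 for the macrophage gene Lyz2. Means over the 38 positive cells do not show which kinds of cell they are. In E11 EHT cells, 3 of 46 cells held at least 4 of the macrophage markers; they carried 5 of the 6 Mt1 transcripts but 1 of the 10 Mt2 transcripts, and without them EHT cells averaged 0.0233 Mt1 transcripts. Among E11 YS cells the 2 visceral endoderm genes compared, Afp and Ttr, were at least 2-fold higher in Mt1-positive cells, against 6.402% of all genes. Both reached the minimum mean in those cells only. That list summed to 1.63 transcripts per positive (1.16 to 2.22) and 0.364 per negative cell (0.157 to 0.717). Afp, at 0.708, was the most abundant of the 18 genes in positive cells, and 7 of the 18 had 0 transcripts there. In E10 YS cells the visceral endoderm sum went the other way, at 0.0870 per Mt1-positive and 0.265 per Mt1-negative cell, with overlapping counting intervals. In E11 IAHC cells it was 0.474 and 0.409, again with overlap. YS cells were sorted as c-kit+, and the part of other cell types in the Mt1 levels was not tested beyond these values.

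Between YS and IAHC cells themselves, the contrast behind the choice of Mt1, 3.83% of genes were at least 2-fold higher in YS at E10 and 6.401% lower, and 1.635% and 6.603% at E11. Of the metal homeostasis list 0 of 5 were higher at E10 and 0 of 10 at E11, and of the erythroid list 6 of 12 and 9 of 13. Lower by at least 2-fold were 0 and 1 (Slc39a1) of the metal homeostasis list, and 1 (Hbb-y) and 0 of the erythroid list. Nothing is read from these counts.

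Whole clusters gave the measurement that did not enter the choice. Each wIAHC library is a cluster picked from the ventral or the dorsal side of the aorta, and the question is whether Mt1 or Mt2 differed by stage or side. Of 109 libraries, 57 had at least 5000 transcripts and were compared, with totals from 5099 to 115328 and a median of 12838: 21 ventral and 7 dorsal at E10, 17 ventral and 12 dorsal at E11. In whole clusters, more cells of a type and more RNA per cell cannot be told apart.

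Most clusters had no transcript of either gene. Mt1 per 10000 transcripts had a lowest value and a median of 0 in each of the 4 groups, and its highest value was 0.425 in E10 ventral, 0.438 in E10 dorsal, 29.8 in E11 ventral and 28.2 in E11 dorsal clusters. Mt1 was found in 3 of 21, 2 of 7, 8 of 17 and 2 of 12 libraries in that order. Mt2 had the same medians of 0, was found in 1, 0, 7 and 2 libraries, and reached 0.212, 0, 28.8 and 7.91 per 10000. The groups thus overlapped at 0, and E11 had a few clusters far above the rest.

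Those clusters were among the ones with red-cell transcripts. In 4 libraries, 2 ventral and 2 dorsal of E11, haemoglobin genes made up 5.39% to 27.5% of transcripts, against at most 0.725% in the other 53. These 4 held 85.5% of all Mt1 and 95.1% of all Mt2 transcripts of the 57 libraries, and their pooled Mt1 level was 25.9 per 10000 against 0.174 in the rest. Their lowest Mt1 level was 1.81, in a dorsal library, below the highest of the rest at 2.35. A single ventral library of 31267 transcripts, with 13.2% haemoglobin, held 93.0 of the 152 Mt1 transcripts and 84.5 of the 123 Mt2 transcripts. Estimated counts are not whole because the authors corrected them for tags that coincide.

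Erythroid genes other than globins pointed the same way, with 18.1 to 69.4 transcripts per 10000 in the 4 libraries and at most 10.8 in the rest. Klf1 had a median of 2.18 per 10000 in the 4 and 0 in the rest, and Cited4 4.62 and 0. Macrophage genes were at 0 in all 4, and Kit, the gene of the c-kit surface receptor, was at most 1.81, with a median of 0 against 3.19 in the rest. How far these red-cell transcripts account for the Mt1 and Mt2 of the clusters was not tested beyond the values without these libraries.

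**Figure D4:**
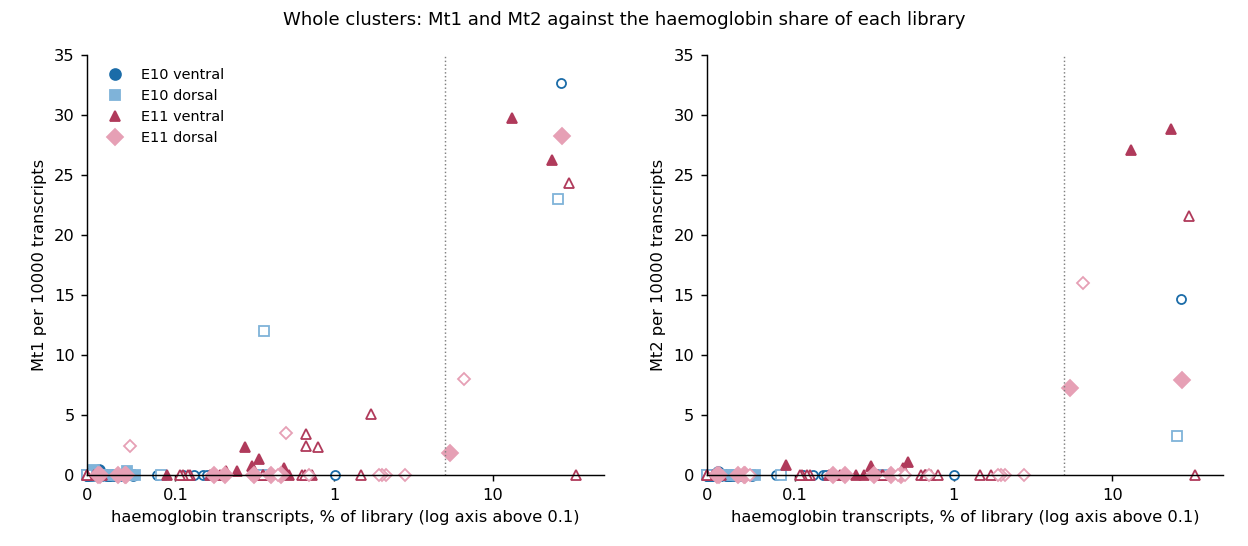
Mt1 (left) and Mt2 (right) per 10000 transcripts in each of the 109 whole-cluster libraries (vertical axis) against the share of haemoglobin transcripts in the library (horizontal axis, logarithmic above 0.1%); filled symbols are libraries of at least 5000 transcripts, and the dotted line marks 5%. Filled symbols left of the line reach at most 2.35 for Mt1 and 1.08 for Mt2.

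Mt1 and Mt2 were higher in E11 than in E10 ventral clusters. Neither gene passed the usual filter on low counts, which kept 260 genes, so both were kept by hand for a fit of 262, a choice made after seeing the data. The log2 fold change of Mt1 was 4.70 (SE 0.87, 17 against 21 libraries, edgeR quasi-likelihood test, Benjamini-Hochberg adjusted p = 2.2e-05) and that of Mt2 was 5.75 (SE 0.97, adjusted p = 4.96e-06), where 14.9% of genes tested were called higher. Clusters from the same embryo cannot be recognised, so these p-values are too small by an unknown amount.

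That difference rested on few libraries. Without the 4 haemoglobin-rich libraries the edgeR quasi-likelihood fit gave 1.33 for Mt1 (SE 0.59, Benjamini-Hochberg adjusted p = 0.0856) and 1.78 for Mt2 (SE 0.54, adjusted p = 0.0293). Mt1 was then in 6 of 15 E11 ventral libraries, at most 2.35 per 10000, and Mt2 in 5. Both values rest on few transcripts. The 15 E11 ventral libraries held 9.03 of Mt1 and 5.01 of Mt2, and the 21 of E10 held 7.04 and 1.00. Without the library with the most Mt1 the same fit gave log2 fold changes of 3.24 and 4.32 (adjusted p = 0.00474 and 0.000648). Over all alternatives with a p the adjusted p ran from 8.93e-23 to 0.616 for Mt1 and from 5.80e-27 to 0.786 for Mt2, again with embryos unknown and p-values too small.

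Among the compared libraries the rise also followed a mark in the column names that splits E11 into 2 sets. What it stands for is not stated. In E11 set 1, Mt1 was at 0 in all 4 ventral and all 6 dorsal libraries, and Mt2 was found in 1 ventral library; in set 2, Mt1 was found in 8 of 13 ventral and 2 of 6 dorsal libraries. All 4 haemoglobin-rich libraries belong to set 2. The other compared libraries of set 2 also held more haemoglobin, at least 0.192%, against at most 0.174% in set 1 and 0.0541% at E10. The 6 E11 ventral libraries with Mt1 that remain without those 4 are all of set 2. Smaller libraries differ: a ventral one of set 1 with 3771 transcripts and 30.4% haemoglobin had 24.3 Mt1 per 10000, and a dorsal one of 4133 transcripts with 0.0485% had 2.42. With the set in the model, which compares E10 with E11 set 1, edgeR gave a log2 fold change of -1.405 for Mt1 (Benjamini-Hochberg adjusted p = 0.616), a value that depends on the prior count since those libraries were at 0, and 1.04 for Mt2 (adjusted p = 0.786). E10 has 1 set, so stage and set 2 cannot be told apart, and the p-values are too small where clusters share an embryo.

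Clusters of E10 with red-cell transcripts exist as well, among libraries too small for the comparison. A ventral E10 library of 3442 transcripts with 27.0% haemoglobin had 32.7 Mt1 per 10000, and a dorsal one of 3086 transcripts with 25.8% had 23. With libraries from 3000 transcripts on, the ventral log2 fold changes were 3.58 for Mt1 and 4.59 for Mt2 (edgeR quasi-likelihood, Benjamini-Hochberg adjusted p = 0.000513 and 1.12e-05), and the limit on shared embryos holds. High Mt1 thus occurred at both stages and on both sides wherever a library of at least 3000 transcripts held at least 5% haemoglobin, with 1 dorsal E11 library lower, at 1.81 per 10000.

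On the dorsal side, Mt1 had a log2 fold change of 2.49 from E10 to E11 (SE 1.504, 12 against 7 libraries, edgeR quasi-likelihood, Benjamini-Hochberg adjusted p = 0.303), where 7.25% of genes were called higher. It did not pass the threshold, and without the haemoglobin-rich libraries Mt1 was at 0 in all 10 dorsal E11 clusters. Mt2 was at 0 in all 7 dorsal E10 clusters, so no fold is given. The difference between sides in the stage effect, tested as an interaction, was 2.21 for Mt1 (SE 1.85, adjusted p = 0.764), and 0.78 without the library with the most Mt1 (adjusted p = 0.918). With libraries from 3000 transcripts on, the dorsal value was 0.93 (adjusted p = 0.764). Shared embryos make these p-values too small as well.

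Between the sides at a given stage neither gene passed. At E10 the ventral over dorsal log2 ratio of Mt1 was -0.98 (SE 1.404, edgeR quasi-likelihood, Benjamini-Hochberg adjusted p = 0.905), and at E11 it was 1.23 (SE 0.94, adjusted p = 0.737), with 2.16 for Mt2 (SE 1.04, adjusted p = 0.488); 0.0% of the 262 genes were called higher at either stage. With edgeR on the 260 filtered genes 0 were called between sides at E10 and 0 at E11, where 20 and 23 had an unadjusted p under 0.05, and DESeq2 called 0 at both. With no filter on low counts, over 13627 genes, Mt1 (1.841, adjusted p = 0.0465) and Mt2 (2.651, adjusted p = 0.000898) did pass at E11. In the filtered fit that gave 1.23 for Mt1, leaving out the library with the most Mt1 gave -0.21 (adjusted p = 0.99), and 0.75 for Mt2 (adjusted p = 0.906). P-values here too are too small where clusters share an embryo.

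Around Mt1 and Mt2, the genes of the lists that could be tested in clusters were few. In ventral clusters edgeR called 18.1% of 260 genes higher at E11 and 13.1% lower; all 3 tested globins (Hba-x, Hbb-bh1 and Hbb-y) rose, with log2 fold changes from 6.55 to 8.74, as did both tested ferritin genes, Fth1 (0.98) and Ftl1 (0.54), while Cd34 fell by 0.96 and Hsp90aa1 by 0.45. In dorsal clusters 7.31% were higher and 1.92% lower, and the same 3 globins rose. All 4 haemoglobin-rich libraries are of E11 set 2, so for the globins too stage and set 2 cannot be told apart. Globin fold changes without those libraries, or with the set in the model, are not given here. The 4 tested oxidative stress genes missed the threshold in ventral clusters, with log2 fold changes from -0.17 to 0.48 (edgeR quasi-likelihood, lowest Benjamini-Hochberg adjusted p = 0.23). None of the 27 metal homeostasis genes passed the filter on low counts. Shared embryos make the p-values behind these calls too small.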

How the data were processed

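Single cells and whole clusters were measured with CEL-Seq, which counts transcripts by molecular tags (256 sequences). Per the labels, reads were mapped with BWA 0.6.2-r126 to mm10; the annotation and the use of strand are not stated. The deposited single-cell values are expected counts, brought by the authors to 3000 or 5000 transcripts per cell with 0.1 added, which was taken off; the deposited whole-cluster values are expected counts corrected by the authors for coinciding tags, and were rounded for the tests. The members and the gene lists were chosen with earlier results of these data known. Genes were named by rule: the 10 most like each member by Pearson r (pseudocount 0.1, a mean of at least 0.5 in a population), and the 10 highest and 5 lowest ratios between Mt1-positive and Mt1-negative E10 yolk sac cells. Lists were compared among genes with a mean of at least 0.2. Other genes belong to lists of known roles or cell type markers. Single-cell intervals are exact (scipy 1.17.1) and cover counting error only. Whole clusters of at least 5000 transcripts were compared in 1 edgeR 4.0.16 quasi-likelihood fit of the 4 groups (TMM, filterByExpr, Benjamini-Hochberg, adjusted p under 0.05), checked on simulated data. Spike-ins were left out. Sides and sets come from column names. Alternatives included RLE factors, DESeq2 1.42.0, other depth minimums, no filter, and leaving out libraries, cells or sets. Python 3.11.15 and R 4.3.3 were used.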

Additional observations from a re-analysis of the deposited data

Results flagged for a closer look

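Libraries of whole clusters with fewer than 5000 transcripts entered no main comparison, and 3 of them held Mt1 or Mt2 above the limit of 3 transcripts that a count of 0 allows. A ventral E10 library held 11.2 Mt1 and 5.05 Mt2 transcripts, with 27.0% haemoglobin. A ventral E11 library held 9.16 Mt1 and 8.13 Mt2 transcripts, with 30.4% haemoglobin, and a dorsal E10 library 7.10 Mt1 transcripts, with 25.8%. Their part in the stage difference is shown only by the fit of libraries with at least 3000 transcripts.

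Among 6 pre-HSC sets of E11, a set of 20 type I cells had an Mt1 mean past Dixon's 95% critical value, at 0.25 transcripts per cell (0.0812 to 0.583) against 0.05 in the next, though these counting intervals overlap. It held all 5 Mt1 transcripts of the type I cells, each in a different cell, and all 3 Mt2 transcripts. The type II set with the same number held the 1 Mt1 transcript and 3 of the 5 Mt2 transcripts of that type. Gene and group together, 6 comparisons of this kind were made.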

How the results depend on the processing

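For sorted populations and across stages, no paired analysis was possible because the former carry no test and E10 clusters have 1 set number. Between sides of E11 clusters, which share 2 set numbers, the set as a block gave 0.21 for Mt1 and 1.18 for Mt2, neither past the threshold. No cell reached 5% haemoglobin, so leaving out such cells could not be run. Single-cell levels stayed within their counting intervals in 45 of 52 values with a set left out, 4 of 4 for IAHC cells that pass the purification rule, 7 of 8 without cells with macrophage markers (an alternative chosen after seeing the data) and 10 of 19 without the highest cell. With sets left out, Mt1 in E11 IAHC cells ranged from 0.303 to 0.379 and in E10 YS cells from 1.7 to 1.72. Thinning E11 cells to 3000 transcripts, which lowers counts by construction, gave Mt1 means of 0.190 in IAHC and 0.630 in YS cells and Mt2 means of 0.1 and 0.348. Without the highest cell Mt2 was 0.107 in IAHC and 0.378 in YS cells of E11. With a mean of at least 0.2 in place of 0.5, 3 of the 10 genes most like each member were shared, and with a pseudocount of 0.5, 8 for Mt1 and 9 for Mt2.

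In whole clusters, keeping Mt1 and Mt2 past the filter, alone and with each other alternative, was chosen after seeing the data. Of 54 values, 47 kept their direction and side of the threshold. For E11 over E10 in ventral clusters, leaving out haemoglobin-rich libraries gave 1.33 for Mt1, no longer past the threshold, and the set as a covariate gave 1.04 for Mt2, not past it, and -1.405 for Mt1, reversed. Dorsal Mt1 was reversed with that covariate (-2.61), and ventral over dorsal Mt1 at E11 without the library with the most Mt1 (-0.21). With no filter that contrast passed for Mt1 (1.841) and Mt2 (2.651). The causes were not tested. DESeq2 gave neither member a p, and contrasts with a whole group at 0 under an alternative were left out. The 2 reversals with the set as a covariate compare E10 with libraries that were all at 0, so their values depend on the prior count.

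Counts of genes called moved by over 1.5 times in 19 of the values for single contrasts. For E11 over E10 in ventral clusters, 71 were higher and 61 lower from 10000 transcripts on, 27 higher with only the 2 groups, 25 higher and 14 lower with the set, and 184 and 126 with no filter. In dorsal clusters, 12 were higher and 9 lower from 3000 transcripts on, 2 and 1 from 10000 on, 10 higher with only the 2 groups, 11 lower with the set and 82 lower with no filter. Between sides with no filter, 2 were higher and 6 lower at E10, and 11 and 1 at E11, where 1 was lower without haemoglobin-rich libraries. Depth limits these results: most libraries hold 0 transcripts of either gene.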

Other observations

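The antisense side of Mt2 holds an annotated gene, Gm45774, on the minus strand, and the use of strand in counting is not stated, so Mt2 counts could include transcripts of that gene. Of 573 words of 31 bases in the Mt2 transcripts, 3 also occur in Pip5k1a. Of 1273 such words in the Mt1 transcripts, 0 occur in another gene.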
